A study of Homo sapiens with 2 samples.

Results

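The regions described here are ASH1 ChIP-seq peaks near the ends of 11 human chromosomes (1, 2, 4, 5, 8, 10, 11, 12, 18, 20 and 21). ASH1 (gene symbol ASH1L) is a histone methyltransferase of the trithorax group. Chromatin was immunoprecipitated from K562 cells, a chronic myelogenous leukaemia line, with in-house rabbit antibodies raised against the last 18 amino acids of the protein. The 2 samples form 1 group with no second condition: replicate 1 was made with antibody batch 1 and replicate 2 with batch 3, so replicate and antibody batch cannot be told apart. K562 is an aneuploid line, and copy number was not analysed here. A peak is a stretch of the genome where the authors' peak caller found more reads than background, and 1 list was deposited per sample. A peak entered when its midpoint lay within 5 Mb of either end of the hg19 chromosome. This rule used position and no score, but it was chosen with earlier results of these data known. The rule took 128 of 910 peaks of replicate 1 and 847 of 4646 of replicate 2. The 11 chromosomes have 22 ends. The end of 21p held 0 peaks in either list and was left out of the tests, because its zone includes the stalk band of an acrocentric short arm, so 21 ends were compared.

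Subtelomeres are the stretches just inside the telomeric repeats. Their outermost parts are patchworks of duplicated segments shared between chromosomes, in which short reads often cannot be placed at a single position. Further inward lie gene-rich, GC-rich bands on many arms. ASH1 is known for methylating lysine 36 of histone H3 at active genes and for opposing Polycomb silencing. The series title concerns domains in which trimethylated lysine 36 and trimethylated lysine 9 of histone H3 occur together, but no histone mark was analysed here, and peaks were not assigned to genes.

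The peaks were far denser here than elsewhere on the same chromosomes. Over the 21 ends there were 1.22 peaks per Mb in replicate 1 and 8.07 per Mb in replicate 2. The rest of the 11 chromosomes held 342 peaks (0.229 per Mb) and 1637 peaks (1.095 per Mb), so the ratios were 5.33 and 7.36, with assembly gaps kept in the lengths. Each peak carries a score from the authors' peak caller, in the form MACS uses (a log-scaled p-value, higher for stronger peaks, capped at 3100). The innermost replicate 2 member (1p, 4999.71 kb from the end, score 407.88) and the first one outside the zone (1p, 5006.47 kb, score 249.23) lay close together. For replicate 1 the corresponding peaks were on 2q at 4725.18 kb (score 77.29) and on 1q at 5088.52 kb (score 54.39). Between 4.5 and 5 Mb the 21 ends held 39 replicate 2 peaks, and from 5 to 5.5 Mb they held 41. The number of replicate 2 peaks thus did not step at the limit.

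The first comparison asked whether the ends carried peaks at equal density. They did not. In replicate 2 the number of peaks per end ran from 3 (20p) through a median of 43 (2q) to 72 (21q). Its variance over the 21 ends was 10.08 times its mean (mean 40.3, SD 20.2). In replicate 1 it ran from 0 (1p) through a median of 5 to 16 (12q), and the variance was 3.36 times the mean (mean 6.10, SD 4.53). The ends of short and long arms as classes were alike in replicate 1, with 63 peaks on 10 short-arm ends and 65 on 11 long-arm ends. Replicate 2 had 381 and 466. The unevenness thus lay between single ends.

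Each end was tested against its share of the peaks at 41 ends, which are all ends of the assembled chromosomes except those of Y and of the acrocentric short arms. A fold of 1 is the mean of these ends, 5.56 peaks in replicate 1 and 37.7 in replicate 2. In replicate 2, 6 of the 21 ends were above the mean and 6 below it (exact binomial test, Benjamini-Hochberg adjusted over the 41 ends), while 26.8% of all 41 ends were called higher and 39% lower. The 21 ends were called about as often as all 41, or less often, so uneven density was not particular to them. In replicate 1, 3 ends were called higher and 1 lower, against 14.6% of all ends in each direction. Of the 4 replicate 1 calls, 0 held when peaks scoring below 70 were dropped from both lists (exact binomial test, adjusted p = 0.33 for 1p and 11p, 1.00 for 18p and 0.052 for 12q). This left 57 of the 128 replicate 1 peaks. The fold was 3.18 on 12q and 1.99 on 11p, 1p still had 0 peaks, and 18p fell below the mean, to 0.80. Within 2.5 Mb of the end, those of 1p, 11p and 18p were lost as well (exact binomial test, adjusted p = 0.22, 0.063 and 0.22), with 0 peaks on 1p and folds of 2.73 on 11p and 2.13 on 18p. The lowest score of the replicate 2 members was 70.06. Neighbouring peaks were treated as independent, which they may not be, so these p-values may be too small, and they describe the 2 lists, not the spread between experiments.

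The end of 12q alone among the 21 was called higher in replicate 1 as well as in replicate 2 (17.1% of all 41 ends were called the same way in both, up or down). It held 16 replicate 1 peaks (3.2 per Mb), 2.88 times the mean end (95% interval 1.67 to 4.57, exact binomial test, adjusted p = 0.0024). In replicate 2 it held 64 peaks (12.8 per Mb), 1.70 times the mean (1.31 to 2.15, exact binomial test, adjusted p = 0.00018). All 16 replicate 1 peaks lay in 12q24.33, between 739 and 3324 kb from the end.

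At the top of the replicate 2 order stood 21q with 72 peaks (1.91 times the mean end, 1.501 to 2.39, exact binomial test, adjusted p = 1.5e-06). It was followed by 1p with 68 (1.80 times, 1.41 to 2.27) and 12q with 64. Then came 10p with 62 peaks, 5p with 61 (band 5p15.33 is known as the home of TERT, the gene of the telomerase catalytic subunit) and 8q with 54. The intervals of these 6 ends overlapped, so their order among themselves is not resolved. The 9 ends from 20q (50 peaks) down to 8p (29 peaks) were not distinguished from the mean, and their intervals overlapped as well. The call for 8q depended on the zone: within 2.5 Mb of the end it held 21 peaks, 0.95 times the mean (exact test, adjusted p = 0.94).

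**Figure D1:**
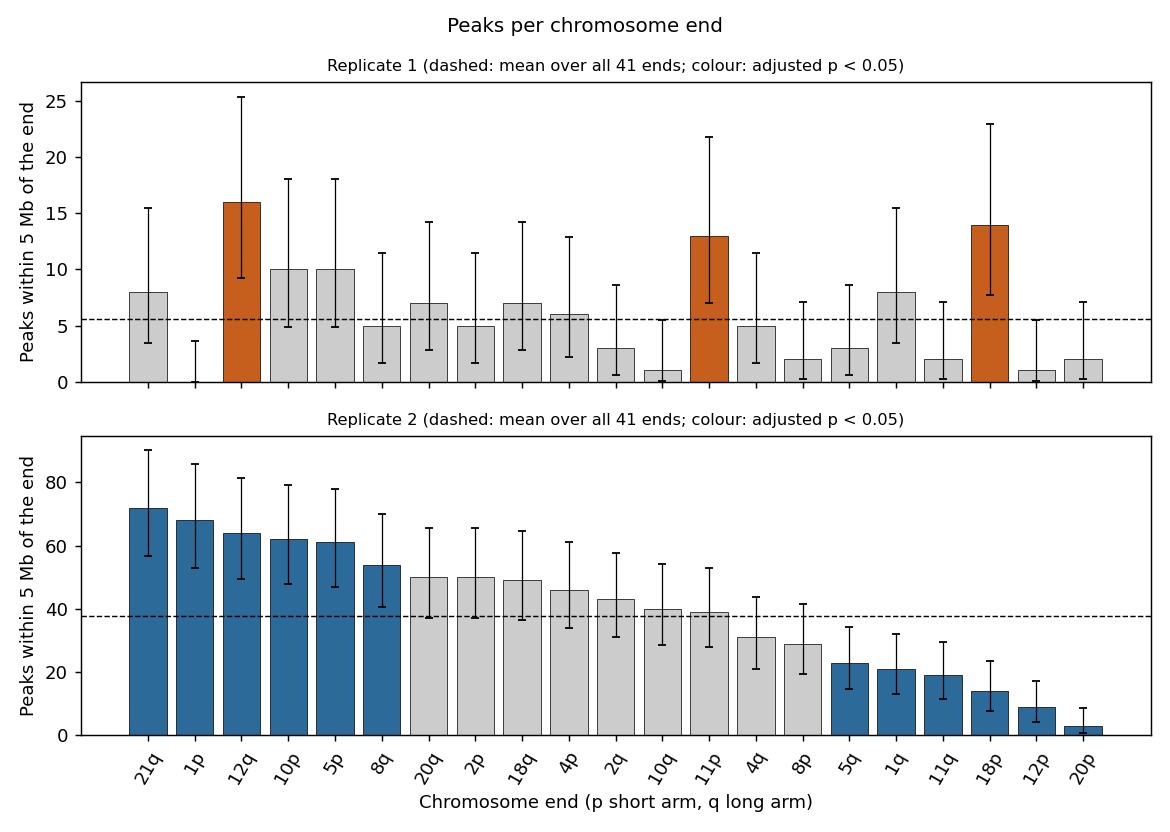
Number of peaks within 5 Mb of each of the 21 chromosome ends (vertical axis) in replicate 1 (top) and replicate 2 (bottom), ordered by replicate 2. Error bars are 95% Clopper-Pearson intervals of the end's share, the dashed line is the mean over 41 ends, and coloured bars have an adjusted p below 0.05. The end of 1p has 0 peaks in replicate 1, a call that shows no bar, and 68 in replicate 2, while 18p has 14 in each list.

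The poorest end of replicate 2 was 20p with 3 peaks, 0.080 times the mean end (0.016 to 0.23, exact binomial test, adjusted p = 2.6e-11). The 3 peaks lay in 20p13, at chromosome 20 positions 1168734 to 1169668 (score 195.43), 1257779 to 1259282 (350.27) and 1857157 to 1857902 (120.53). Replicate 1 had 2 peaks there, at 363326 to 364211 (51.17) and 524161 to 525085 (61.95), and neither list overlapped the other. The end of 12p held 9 replicate 2 peaks (0.24 times, 0.11 to 0.45, exact binomial test, adjusted p = 1.6e-07) and 1 replicate 1 peak. The innermost 12p peak lay 2848 kb from the end, so the 4 innermost bins of the zone, from 3000 kb on, were empty in both lists. The other ends called lower in replicate 2 were 18p (14 peaks, 0.37 times), 11q (19, 0.50 times), 1q (21, 0.56 times) and 5q (23, 0.61 times). The 5q call was lost when peaks less than 10 kb apart were merged (exact test, adjusted p = 0.064), and those of 5q and 1q when Y and the acrocentric short arms were included (0.11 and 0.052). All of these except 20p and 12p were nonetheless above the average of the whole genome: against whole chromosome length 1q stood at 2.80, 5q at 3.07, 11q at 2.54 and 18p at 1.87 times in the exact test, with 12p at 1.20 and 20p at 0.40 times, neither of which was called. Replicate 1 had 2 peaks on 11q, 8 on 1q and 3 on 5q. Together with 1p (0), the sparsest ends of replicate 1 were 10q and 12p (1 peak each), then 8p, 11q and 20p (2 each).

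The 2 ends of a chromosome often differed. In replicate 2 the split between the short-arm and long-arm end was uneven on 8 of 10 chromosomes (exact binomial test against an even split, adjusted over the 18 chromosomes with both ends tested; 88.9% of the 18 were called). In replicate 1 it was uneven on 4 of 10, where 44.4% of the 18 were called. Both counts are close to this background. Of the chromosomes called in both lists, 3 went the same way. On chromosome 12 the long arm held more, with 16 peaks against 1 in replicate 1 and 64 against 9 in replicate 2 (exact test, adjusted p = 0.0025 and 1.4e-10). On chromosome 11 the short arm held more, with 13 against 2 and 39 against 19 (exact test, adjusted p = 0.023 and 0.015). Its distal band 11p15.5 is known for the imprinted IGF2 and H19 genes. On chromosome 10 the short arm held 10 against 1 in replicate 1 and 62 against 40 in replicate 2 (exact test, adjusted p = 0.029 and 0.042).

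The remaining calls came from replicate 2 alone, except chromosome 1. Chromosome 20 had the widest split, with 3 short-arm and 50 long-arm peaks (5.66% short, 95% interval 1.18 to 15.7%, exact binomial test, adjusted p = 5e-11). Replicate 1 had 2 and 7 there. Chromosome 5 leaned to the short arm in both lists, with 61 against 23 in replicate 2 (exact test, adjusted p = 9.2e-05) and 10 against 3 in replicate 1 (exact test, adjusted p = 0.18). Chromosome 8 had 29 against 54 (exact test, adjusted p = 0.011), but within 2.5 Mb of the end the short arm had 53.3% of the peaks. Chromosomes 2 (50 and 43 peaks) and 4 (46 and 31) were not called. The calls of chromosomes 1, 10 and 11 in replicate 1 were lost without the peaks scoring below 70 (exact test, adjusted p = 0.45, 0.21 and 0.45). The short-arm percentages were then 0, 87.5 and 83.3, on 3, 8 and 6 peaks. Lost as well was the replicate 2 call of chromosome 11 when peaks less than 10 kb apart were merged (62% short, exact test, adjusted p = 0.13). Within 2.5 Mb of the end, 0 chromosomes were called the same way in both lists (exact test, adjusted p = 0.097 for chromosome 11 and 0.057 for chromosome 12 in replicate 1, and 0.56 for chromosome 10 in replicate 2).

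Chromosomes 1 and 18 leaned to opposite arms in the 2 lists, but the replicate 1 split of chromosome 18 was not called. On chromosome 1, replicate 1 had 0 short-arm and 8 long-arm peaks, and replicate 2 had 68 and 21. On chromosome 18, replicate 1 had 14 and 7 (exact binomial test, adjusted p = 0.28), and replicate 2 had 14 and 49 (exact binomial test, adjusted p = 2.9e-05). With scores of at least 70, replicate 1 had 2 and 3 on chromosome 18, no longer more on the short arm. A test of the split between the lists, added after the counts had been seen, called these 2 chromosomes and none of the other 16 (Fisher's exact test, adjusted p = 0.00053 for chromosome 1 and 0.0033 for chromosome 18; 11.1% called). The shares of the lists differed at the same ends. The end of 1p took 0% of the replicate 1 peaks at the 41 ends and 4.40% of those of replicate 2 (Fisher's exact test, adjusted p = 0.0026). The end of 18p took 6.14% and 0.906% (Fisher's exact test, adjusted p = 7.2e-05). Of the 41 ends, 2.44% were called with a larger share of replicate 1 and 4.88% with a larger share of replicate 2. Without the peaks scoring below 70, neither end was called (Fisher's exact test, adjusted p = 0.31 for 1p and 0.68 for 18p), and within 2.5 Mb of the end neither was (0.17 and 0.060). The share of replicate 1 minus that of replicate 2 was then -4.40 and -3.74 percentage points on 1p, and 1.04 and 4.20 on 18p.

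The empty 1p end of replicate 1 lay in a longer gap of that list. Its first peak on chromosome 1 lay at 7163254 to 7164201, and from 5 Mb to the centromere band it had 14 peaks over 116.5 Mb (0.12 per Mb). Replicate 2 had 157 peaks over the same stretch (1.35 per Mb). With 0 replicate 1 peaks there, none of the 68 replicate 2 peaks of the 1p end could be shared, whatever their score. Among these, 16 had a score of at least 300, out of 186 such replicate 2 peaks over all 21 ends. The highest of the 68 was at 563935 to 570784 in 1p36.33, with a score of 3062.5 and a width of 6850 bp, the widest of all 847. This stretch of hg19 is known to hold a long nuclear copy of mitochondrial DNA, whose part in the peak was not tested. The next lay at 9838 to 10622 (score 1299.34).

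The 18p end showed the reverse. Its 14 replicate 1 peaks were spread from 323 to 3796 kb from the end over 8 of the 10 bins of 500 kb. Of these, 1 was shared: 2569961 to 2571868 in 18p11.32, with a score of 293.15 in replicate 1 and 368.55 in replicate 2. The other 13 scored between 50.26 and 106.64, and 12 of the 14 were below 70. The nearest replicate 2 peak lay between 20.7 and 423 kb away from them. The widest replicate 1 member of all was among them (3584074 to 3586583 in 18p11.31, 2510 bp, score 53.69), as was the highest unshared one (2424931 to 2426226, score 106.64). With scores of at least 70 required, 18p held 2 replicate 1 peaks and stood at 0.80 times the mean end. On the rest of the short arm, 5 of 8 replicate 1 peaks were shared.

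Across the 21 ends the numbers of peaks in the 2 lists were loosely related, with Pearson's r of 0.29 and Spearman's rho of 0.32. Without 1p and 18p, picked after their values had been seen, r was 0.63 and rho 0.67 over 19 ends. These coefficients describe ends of 1 cell line and carry no test. The number of replicate 2 peaks per replicate 1 peak was lowest on 18p, with 14 peaks in each list, and highest on 10q, with 1 in replicate 1 and 40 in replicate 2. The end of 1p has no such ratio.

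Peak number varied from bin to bin. The zones were divided into 10 bins of 500 kb counted inward from the end, 210 bins in all. In replicate 2, 28 bins (13.3%) were empty, the median was 3 peaks and the highest 14. In replicate 1, 134 bins (63.8%) were empty and the highest held 5. In replicate 2, 10 of the 210 bins were denser than the average bin (exact binomial test, adjusted over the 410 bins of all 41 ends; 5.37% of the 410 were called, a like share). No bin of either list could be called sparser, since even an empty replicate 2 bin had an adjusted p of 0.13 in the exact binomial test. In replicate 1, 0 bins were called (exact binomial test, adjusted in the same way; 0% of the 410 were called denser), and so 0 in both lists.

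The 10 dense bins lay on 10 different ends. The fullest was on 10q, at 134034748 to 134534747 in 10q26.3, with 14 peaks (3.71 times the average bin, exact binomial test, adjusted p = 0.0041), of which 0 were shared. Bins with 13 peaks each (3.45 times, exact binomial test, adjusted p = 0.0057) lay on 5p (1000001 to 1500000), 8q (142864023 to 143364022), 12q (132851896 to 133351895), 18q (77077249 to 77577248) and 21q (46629896 to 47129895). A bin of 4p (3500001 to 4000000 in 4p16.3) held 12 replicate 2 peaks. Bins of 1p (500001 to 1000000), 4q (190154277 to 190654276) and 10p (1500001 to 2000000) held 11 each. The 12q bin was also the fullest of replicate 1, with 5 peaks of which 4 were shared (8.99 times, exact binomial test, adjusted p = 0.055). The 4p bin held 4 replicate 1 peaks, all shared. The first of these, at 3568715 to 3569500, scored 67.28 against 264.91 in replicate 2, and the last, at 3912424 to 3913717, scored 112.06 against 495.57. A dense bin of replicate 2 was therefore matched in replicate 1 on some ends (12q, 4p, and 18q and 21q with 3 of 3 shared). On others (1p, 10p, 10q) the bin held 0 replicate 1 peaks, so none of its replicate 2 peaks could be shared. When peaks less than 10 kb apart were merged, 5 bins of replicate 2 were called.

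**Figure D2:**
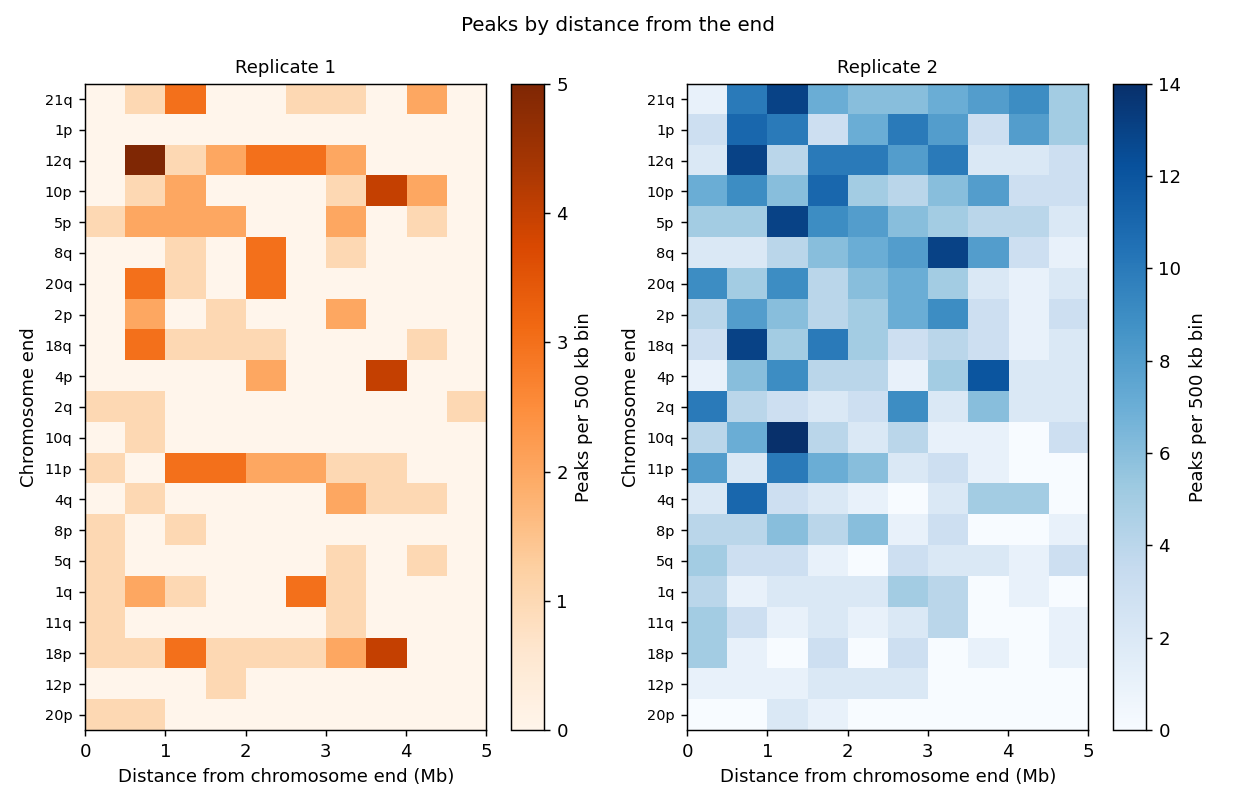
Peaks per 500 kb bin at each of the 21 ends (rows, ordered as by replicate 2 count) against distance from the chromosome end in Mb (columns), for replicate 1 (left, 0 to 5 peaks) and replicate 2 (right, 0 to 14 peaks). The replicate 1 row of 1p is empty, and 3 bins of 18p hold replicate 1 peaks and 0 replicate 2 peaks.

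Density changed with the distance from the end. Summed over the 21 ends, replicate 2 had 85 peaks in the first 500 kb (8.10 per Mb), 119 in the next (11.3 per Mb) and 124 between 1000 and 1500 kb (11.8 per Mb). Between 4000 and 4500 kb it had 43 (4.10 per Mb), and between 4500 and 5000 kb 39 (3.71 per Mb). Replicate 1 had 9, 24 and 19 peaks in the first 3 bins and 8 and 1 in the last 2. Both lists thus peaked inside the first 1.5 Mb but not in the outermost 500 kb, with assembly gaps kept in the lengths. In replicate 2 the first 500 kb held a peak on 20 of the 21 ends, but the number per end varied from 0 on 20p to 10 on 2q. By distance, 8.24% (3.38 to 16.2%) of replicate 2 peaks were shared in the first bin, 15.1% (9.22 to 22.8%) in the second and 2.56% (0.065 to 13.5%) in the last. These values are limited by the number of replicate 1 peaks in each bin. Of those, 7 of 9, 20 of 24 and 1 of 1 were shared, so the low last value restates the replicate 1 count.

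The next comparison asked whether both antibody batches marked the same sites at each end. A peak was counted as shared when it overlapped a peak of the other list by at least 1 bp. Over the 21 ends, 99 of 128 replicate 1 peaks were shared (77.3%, 95% Clopper-Pearson interval 69.1 to 84.3%), and 97 of 847 replicate 2 peaks were (11.5%, 9.39 to 13.8%). On the rest of the 11 chromosomes the percentages were 40.4 and 8.31. The intervals cover counting error only. On 5p, 10 of 10 replicate 1 peaks were shared (69.2 to 100%), on 21q 8 of 8, on 18q and 20q 7 of 7 each and on 2p 5 of 5. On 10p the count was 9 of 10 and on 12q 15 of 16. On 11p it was 10 of 13.

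The end of 18p stood apart in replicate 1, with 1 of 14 shared (7.14%, 0.18 to 33.9%) against 82.7% at the other ends tested (Fisher's exact test, adjusted p = 2.9e-07 over 35 ends with a peak; 2.86% of these were called lower and 0% higher). With the replicate 2 list limited to the length of the replicate 1 list the adjusted p for 18p in Fisher's exact test was 0.069, and 21q was called in its place. In replicate 2, 12q was called higher (15 of 64 or 23.4%, 13.8 to 35.7%, against 10.9% elsewhere, Fisher's exact test, adjusted p = 0.04997). The 1p end was called lower (0 of 68, against 11.9% elsewhere, Fisher's exact test, adjusted p = 0.013), but replicate 1 had 0 peaks in that zone, so this value restates the empty end and is no separate result. For each direction 7.32% of the 41 ends were called. The 12q value lay at the threshold. A replicate 2 share is also limited by the number of replicate 1 peaks at the end. On 12q that number was 16, the most of the 21 ends, so the call is not separate from its replicate 1 density. On 11p the share was as high, at 10 of 39 (25.6%, 13.04 to 42.1%), but was not called (Fisher's exact test, adjusted p = 0.055). On 10q it was 1 of 40 (2.5%, 0.063 to 13.2%), also not called. Replicate 1 had 1 peak there, which was shared, so this low value restates the replicate 1 count. Without the peaks scoring below 70, 0 ends were called in either list (Fisher's exact test, adjusted p = 0.91 for 18p in replicate 1, 0.43 for 1p and 0.44 for 12q in replicate 2).

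**Figure D3:**
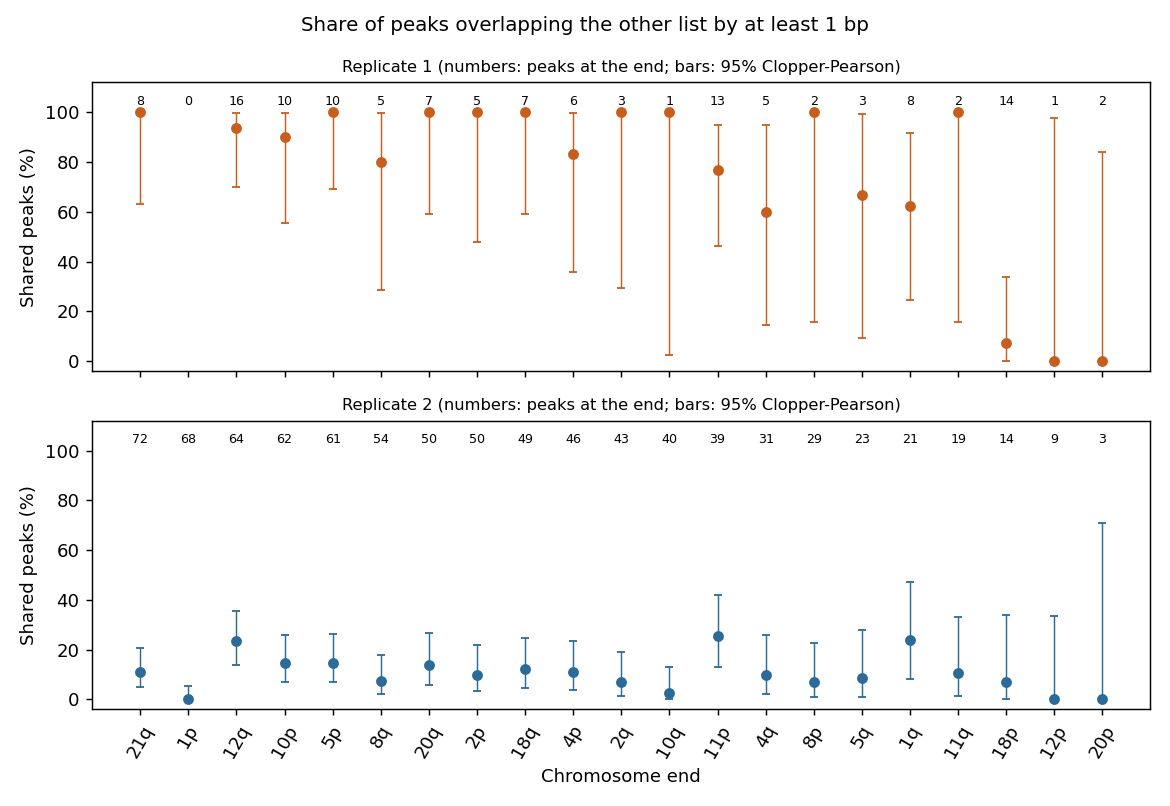
Percentage of peaks at each end that overlap a peak of the other list by at least 1 bp, for replicate 1 (top) and replicate 2 (bottom), with 95% Clopper-Pearson intervals and the number of peaks above each point. In replicate 1, 18p (1 of 14 shared) lies below the other ends with 5 or more peaks. In replicate 2, 1p has 0 of 68 shared, and replicate 1 has 0 peaks at that end.

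The 99 shared pairs had their midpoints a median of 99.5 bp apart. In 97 of them replicate 2 had the higher score, with a median ratio of 3.77 (quartiles 2.70 and 5.70). The 2 exceptions were among the 3 highest-ranked shared sites, ranked by the mean percentile of score within each list. First came the 4p16.3 site (chromosome 4, 2010226 to 2011548, 2010.89 kb from the end), with scores of 971.06 in replicate 1 and 858.09 in replicate 2. The 2q37.3 site (chromosome 2, 242576271 to 242577410, 622.533 kb from the end) scored 860.74 and 872.4. The 1q44 site (chromosome 1, 249119838 to 249120974) lay 130.2 kb from the end and scored 713.37 and 655.9. These 3 sites were of nearly equal score in both lists. Lower in the ranking, a 5q site from 180670466 (250.94 and 259.81) and an 18q site from 76798756 (80.07 and 82.45), picked after their values had been seen, were nearly equal too.

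At ranks 4 to 10, the replicate 2 score was at least 2.04 times that of replicate 1. Of the other 7 sites, 2 lay in 5p15.33: chromosome 5, 1929123 to 1930743 (171.52 and 878.74) and 1332634 to 1334334 (126.36 and 2293.75). The latter had the widest ratio of the 10, at 18.2. In 12q24.33 there were 3: chromosome 12, 131248432 to 131250577 (252.2 and 584.62), 131441087 to 131442554 (222.71 and 455.3) and 133112302 to 133113650 (139.81 and 550.98). The others were in 4q35.1 (chromosome 4, 186747837 to 186749293, 180.36 and 621.03) and in 21q22.3 (chromosome 21, 47217102 to 47218559, 144.18 and 538.13). The 10 sites fell on 7 ends, and 12q supplied more of them than any other end. It also held the most shared replicate 1 peaks of the 21 ends, 15 of 99, and the most replicate 1 peaks, 16 of 128, a like share.

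The highest unshared peaks of replicate 2 reached the cap of 3100 at 12q24.33 (chromosome 12, 132060612 to 132062307, 97.951 kb from the nearest replicate 1 peak) and at 5p15.33 (chromosome 5, 9836 to 12150, 332.1 kb away). In replicate 1, the unshared peaks that came after the one on 18p were in 5q35.3 (chromosome 5, 176830577 to 176831543, score 75.73) and 8q24.3 (chromosome 8, 145159530 to 145160241, score 73.35). The 8q24.3 peak had a replicate 2 peak 20.03 kb away.

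Peak width differed less between ends than peak number. Replicate 1 members had a median width of 968 bp, with quartiles of 785.5 and 1181 bp. The replicate 2 median was 1105 bp, with quartiles of 908.5 and 1419.5 bp. On the rest of the 11 chromosomes the medians were 844.5 and 1046 bp. By end, the replicate 2 median ran from 932 bp on 12p to 1278 bp on 21q, followed by 11p (1264 bp), 1q (1228 bp) and 12q (1221.5 bp). The quartiles of 21q (935.5 and 1595.75 bp) took in the medians of all ends except 12p and 20p (935 bp on 3 peaks), so the ends overlapped broadly. In replicate 1, among ends with at least 5 peaks, it ran from 711 bp on 18q to 1191 bp on 5p. The order differed in part between the lists: 11p was second widest in replicate 2 and, at 792 bp, among the narrowest of replicate 1. By contrast, 21q was widest in replicate 2 and, at 1189.5 bp, next to 5p in replicate 1. No relation of the widths between the lists was computed. No test was made on widths, since peaks are not replicates. Shared peaks were wider, with medians of 1032 against 886 bp in replicate 1 and 1595 against 1067 bp in replicate 2, and the replicate 2 peak was the wider in 94 of 99 pairs. Shared peaks also scored higher, with median scores of 73.84 against 57.12 in replicate 1 and 331.74 against 149.29 in replicate 2.

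Of the 10 widest peaks of replicate 2 (3642 to 6850 bp), 1 was shared, where 11.5% of all its members were. The 10 lay on 6 ends with 4 on 1p and 2 on 10q. The 4 on 1p could not be shared, since replicate 1 had 0 peaks there, so the 2 shares are not like for like. Besides the 6850 bp peak of 1p36.33, the widest was at 105361 to 112034 in 18p11.32 (6674 bp, score 832.22, 108.7 kb from the end). The shared one was at 647914 to 651936 in 5p15.33 (4023 bp), which overlapped 2 separate replicate 1 peaks (648058 to 649819 and 650128 to 651314).

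**Figure D4:**
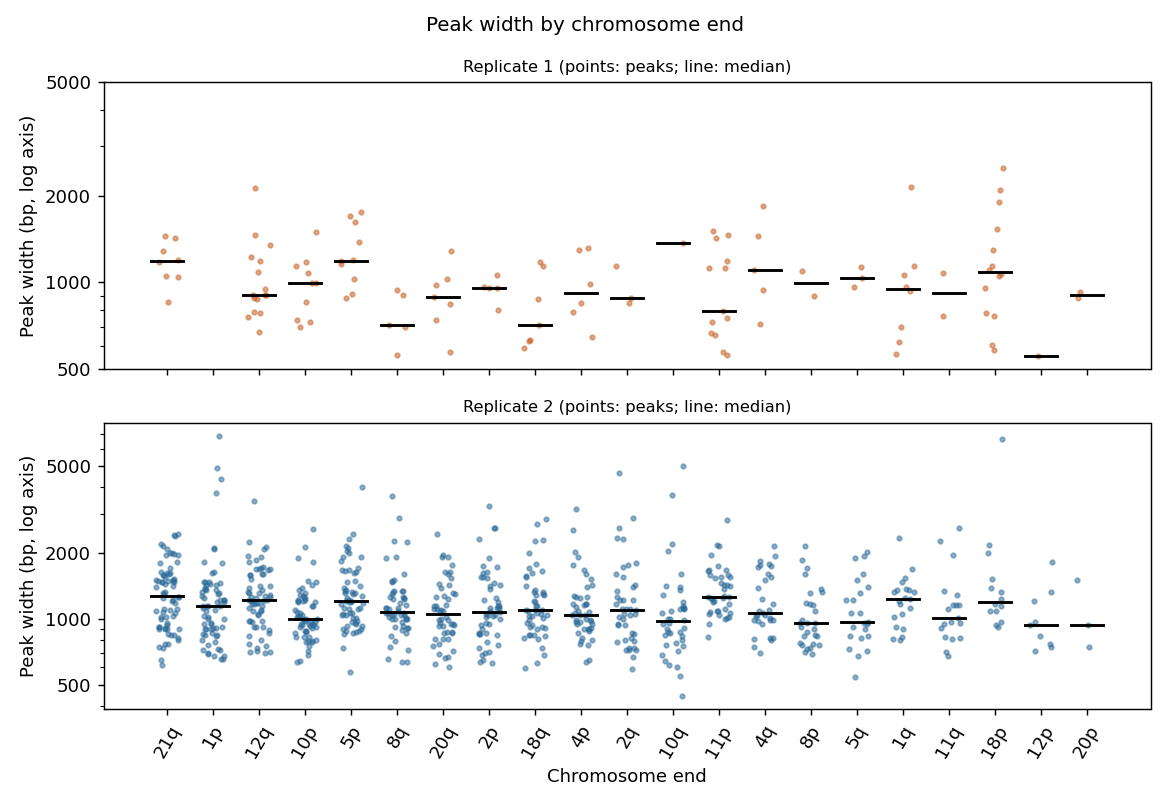
Width of every peak (points, bp, log axis) and the median (black line) at each end, for replicate 1 (top) and replicate 2 (bottom). The replicate 2 medians lie between 932 and 1278 bp at all 21 ends, and the single widest peaks stand on 1p (6850 bp) and 18p (6674 bp).

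The outermost 100 kb were treated apart, because duplicated sequence is known to be commonest there. They held 18 replicate 2 peaks, on 11 of the 21 ends (8.57 per Mb, against 8.06 per Mb in the rest of the zone). This is 1.06 times the share expected from length (0.63 to 1.67, exact binomial test, p = 0.71). Replicate 1 had 1 peak there, 0.39 times (0.0099 to 2.14, exact binomial test, p = 0.53). The interval of replicate 1 spans both a depletion and an excess. Assembly gaps were kept in the lengths, so the expected share may be too large and the folds too low. Whether the outermost sequence is denser or sparser than the rest is therefore not settled. In the outermost 50 kb the folds were 1.42 in replicate 2 (12 peaks) and 0.78 in replicate 1 (1 peak), and in the outermost 200 kb 0.80 (27 peaks) and 0.59 (3 peaks), again not called (exact binomial test, p = 0.22, 1.00, 0.25 and 0.50). Over all 41 ends replicate 2 stood at 1.003 times (31 peaks, 0.68 to 1.42). The one replicate 1 peak, at 45427 to 46521 in 8p23.3 (score 64.36), was shared with a replicate 2 peak at 45258 to 46571 (score 358.19), so 1 of the 18 was shared (5.56%, 0.14 to 27.3%). In the rest of the zone 11.6% of replicate 2 peaks were shared (Fisher's exact test, p = 0.71). The median score of the 18 was 220.2, against 165.9 in the rest, and their median width 1235 bp against 1104 bp.

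The highest of the 18 was the 5p15.33 peak at the score cap of 3100 (9836 to 12150, 2315 bp). Next came 12p13.33 (chromosome 12, 94972 to 95903, 1375.63), 1p36.33 (chromosome 1, 9838 to 10622, 1299.34), 10q26.3 (chromosome 10, 135499087 to 135502754, 3668 bp, 1005.55) and 18p11.32 (chromosome 18, 9859 to 11022, 666.63). The end of 10q is known to carry an array related to the D4Z4 macrosatellite of 4q35.2, while 4q itself had 0 peaks in its outermost 100 kb in either list. On 4 short-arm ends (1p, 4p, 5p and 18p) a replicate 2 peak began between positions 9836 and 9859. This is just before the place where the assembled sequence of these chromosomes is known to begin. The scores of these 4 peaks ran from 404.07 on 4p (9836 to 10468) to the cap on 5p. Replicate 1 had 0 peaks starting in the first 10000 positions of any assembled chromosome, and replicate 2 had 5, the other one being on chromosome 7. The end of 5q held 3 of the 18 (scores 84.09 to 185.7), 18p held 3, and 1q, 8p and 10q held 2 each. Whether reads at these places have a single position in the genome was not tested.

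**Figure D5:**
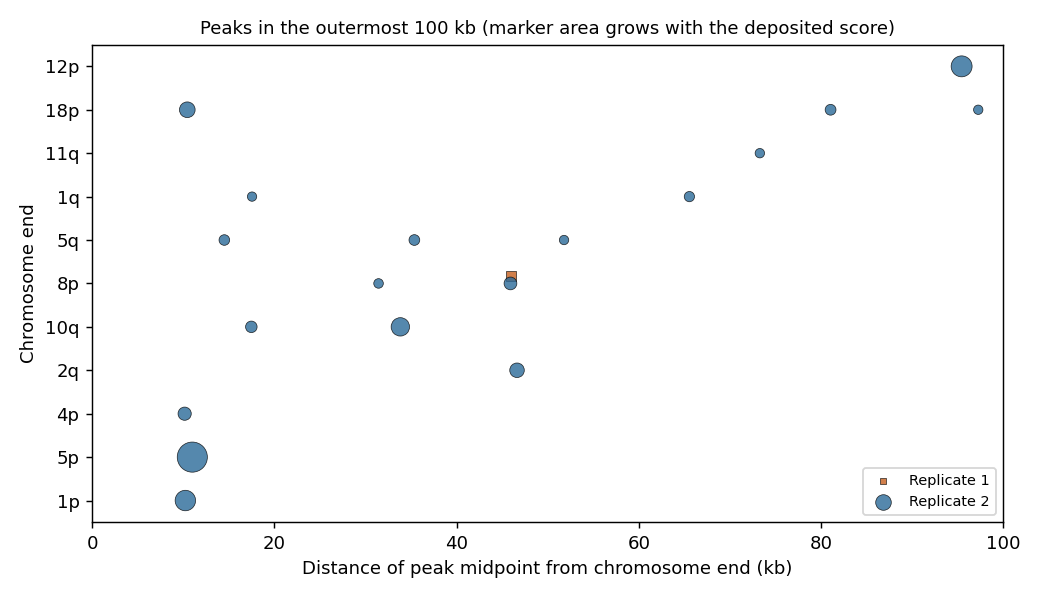
Distance of each peak's midpoint from the chromosome end in kb (horizontal axis) for the 18 replicate 2 peaks (circles) and the 1 replicate 1 peak (square) of the outermost 100 kb, by chromosome end; marker area grows with score. The 4 peaks of 1p, 4p, 5p and 18p line up between 10.15 and 10.99 kb, and the replicate 1 peak sits on a replicate 2 peak of 8p.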

How the data were processed

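The deposited files are 1 peak list per sample with start, end and a score, made by the authors with BWA and MACS per the submitters' processing notes. The sources used here give neither tool versions and settings nor a control library or read depth. In these files the deposited score is the authors' own value per peak. The notes name hg19 and GRCh38; the files' names give hg19, and 0 peaks end beyond an hg19 chromosome. Chromosome lengths and cytogenetic bands came from the hg19 tables of circlize 0.4.16. Printed positions are 1-based.

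Members were taken by midpoint and assigned to the nearer end. Counts per end, arm and 500 kb bin were tested with exact two-sided binomial tests, shares with Fisher's exact test, both with Benjamini-Hochberg adjustment over all 41 ends, 18 chromosomes or 410 bins of the genome, at 0.05. Intervals are 95% Clopper-Pearson. Procedures were tested on simulated lists whose peaks were placed at random and independently within each zone, so clustering of peaks was not covered. Members, tests and named items were chosen with earlier results of these data known. The rule named the ends with the 3 highest and 3 lowest counts in each list, chromosomes with a called split, bins dense in both lists, the 10 highest-ranked shared and 3 highest unshared peaks, the widest peak, and of the outermost 100 kb every replicate 1 and the 5 highest replicate 2 peaks. The bins dense in replicate 2 alone, the 18p, 20p and 4p peaks given singly, the 5q and 18q pairs of nearly equal score, the 10 widest, the scores of at least 300, the arm split between lists and the removal of 1p and 18p were chosen after seeing the data. No gene annotation of hg19 was used. Tests ran in scipy 1.17.1 under Python 3.11.15 (numpy 2.4.6, pandas 2.3.3), with plots by matplotlib 3.10.9. Alternatives were a score minimum, merged neighbours, a 2.5 Mb zone, other references, overlap rules and list lengths, and each list alone.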

Additional observations from a re-analysis of the deposited data

How the results depend on the processing

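Ends called the same way in both lists numbered 1. The number was 0 without the peaks scoring below 70, 13 against whole chromosome length, and 4 to 12 when a replicate was left out and 1 list sufficed. Chromosomes with the same arm split in both lists numbered 3, then 1 with scores of at least 70, 0 within 2.5 Mb, and 4 to 8 with a replicate left out. Dense bins in both lists numbered 0, and 0 to 10 with a replicate left out. Ends whose share differed between the lists numbered 2, and 0 with scores of at least 70 or within 2.5 Mb. Ends called for their shared fraction were 1 in replicate 1 and 2 in replicate 2; both fell to 0 with scores of at least 70, and replicate 2 to 0 with lists of equal length, where replicate 1 had 1 call, at 21q and not 18p. The outermost 100 kb, as the mean fold of both lists, gave 0.73, and 0.39 to 1.06 with a replicate left out. It was 1.10 for 50 kb, above 1, 0.69 for 200 kb, 0.53 with scores of at least 70 and 0.76 with neighbours merged, in no case past the threshold. Assembly gaps were kept in all of these lengths. Directions turned for 18p in replicate 1 (0.80 with scores of at least 70), for 8q in replicate 2 (0.95 within 2.5 Mb, where the short arm of chromosome 8 had 53.3%), and, against whole chromosome length, which asks another question, for 1q (2.80), 5q (3.07), 11q (2.54), 12p (1.20) and 18p (1.87) in replicate 2. Limiting scores to 70 leaves 57 of the 128 replicate 1 peaks and tests fewer peaks; the cause of the other changes was not tested. No paired analysis was possible because the 2 samples belong to a single group. Read depth is unknown, and absence from a list means no detectable peak there, not absent binding.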
